A study of Homo sapiens with 9 samples.

Results

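The NRF2 antioxidant system was followed through 9 genes: the transcription factor NFE2L2 (the gene of NRF2), its inhibitor KEAP1, and the target genes HMOX1, GCLC, GCLM, TXNRD1, SRXN1, NQO1 and ME1. They were chosen by symbol from the array's probe annotation, leaving the metallothioneins aside, and make up 9 of 19775 genes tested. All 20 probe sets that carry 1 of these symbols alone, of 54675 on the array, were used, and 1 further probe set that names NFE2L2 together with another gene was not. The samples were HepG2 cells, an established human hepatoma line, on Affymetrix 3′ expression arrays, and the values are log2 RMA signals. GW7647, a synthetic agonist of the fatty acid receptor PPARα, was given at 100 nM. There were 3 arrays after 24 h of GW7647, 3 after 6 h and 3 of vehicle (DMSO) cultures, all of the same line. The same vehicle arrays served both times and the labels give them no duration, so ligand exposure and time in culture cannot be told apart, and both comparisons with vehicle share their controls.

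NRF2 is a transcription factor that is made continuously and, in unstressed cells, is held by KEAP1 and handed to a ubiquitin ligase for destruction. Reactive compounds modify cysteines of KEAP1, NRF2 then escapes, pairs with small MAF proteins and binds antioxidant response elements in DNA. Its control lies largely in the stability of the protein, which transcript arrays do not measure. Its targets make glutathione, recycle thioredoxin and peroxiredoxin, reduce quinones, supply NADPH and break down haem, and the liver relies on them when it handles drugs.

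GCLM, TXNRD1 and SRXN1 had lower signals after 24 h of GW7647 than after 6 h, by 1.36-fold, 1.34-fold and 1.41-fold (95% confidence intervals 1.21 to 1.53, 1.22 to 1.46 and 1.30 to 1.53). In each of the 3 genes the 6 h arrays lay entirely above the vehicle arrays, and the 24 h mean lay below the vehicle mean. Among all genes, 10.5% had 6 h arrays entirely above vehicle, and 13.8% had 24 h arrays entirely below the 6 h arrays. The 3 genes were picked by their fall from the same 6 h arrays, which favours high 6 h values. These shares over unselected genes are therefore no test of the pattern. At 6 h against vehicle only TXNRD1 of the 3 passed. In such bulk samples, fewer cells that express a gene and less RNA per cell cannot be told apart. HMOX1 had another course, 1.33-fold higher than vehicle at 24 h and 1.32-fold higher at 6 h. NFE2L2, KEAP1, NQO1, GCLC and ME1 passed the test in none of the 3 comparisons, although at an unadjusted p under 0.05 NFE2L2 was lower at 24 h than in either other group. After quantile normalization NFE2L2 passed as lower at 24 h in both (adjusted p = 0.0440 against vehicle and 0.0425 against 6 h). It also did so with an intensity trend in the prior variance (0.0226 and 0.0391). Among genes brighter than the median it passed against vehicle only (0.0376). Under all other alternatives, whichever single array was left out included, NFE2L2 passed in neither comparison.

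Differences were tested with limma over all genes, and a gene was called at a Benjamini-Hochberg adjusted p under 0.05. At 24 h against vehicle, 1 of the 9 genes rose and 1 fell, and 8.17% of all genes were called (5.38% higher and 2.80% lower). At 6 h against vehicle, 2 rose and 0 fell, where 3.54% of all genes were called (1.64% higher and 1.91% lower). Between 24 h and 6 h, 0 rose and 3 fell at 24 h, where 13.8% of all genes were called (9.23% higher and 4.57% lower). The median log2 change of the 9 genes was -0.11 for 24 h against vehicle, 0.0039 for 6 h against vehicle and -0.10 for 24 h against 6 h. Over all genes it was 0.0034, 0.0039 and -0.0097 in the same order of comparisons.

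**Figure D1:**
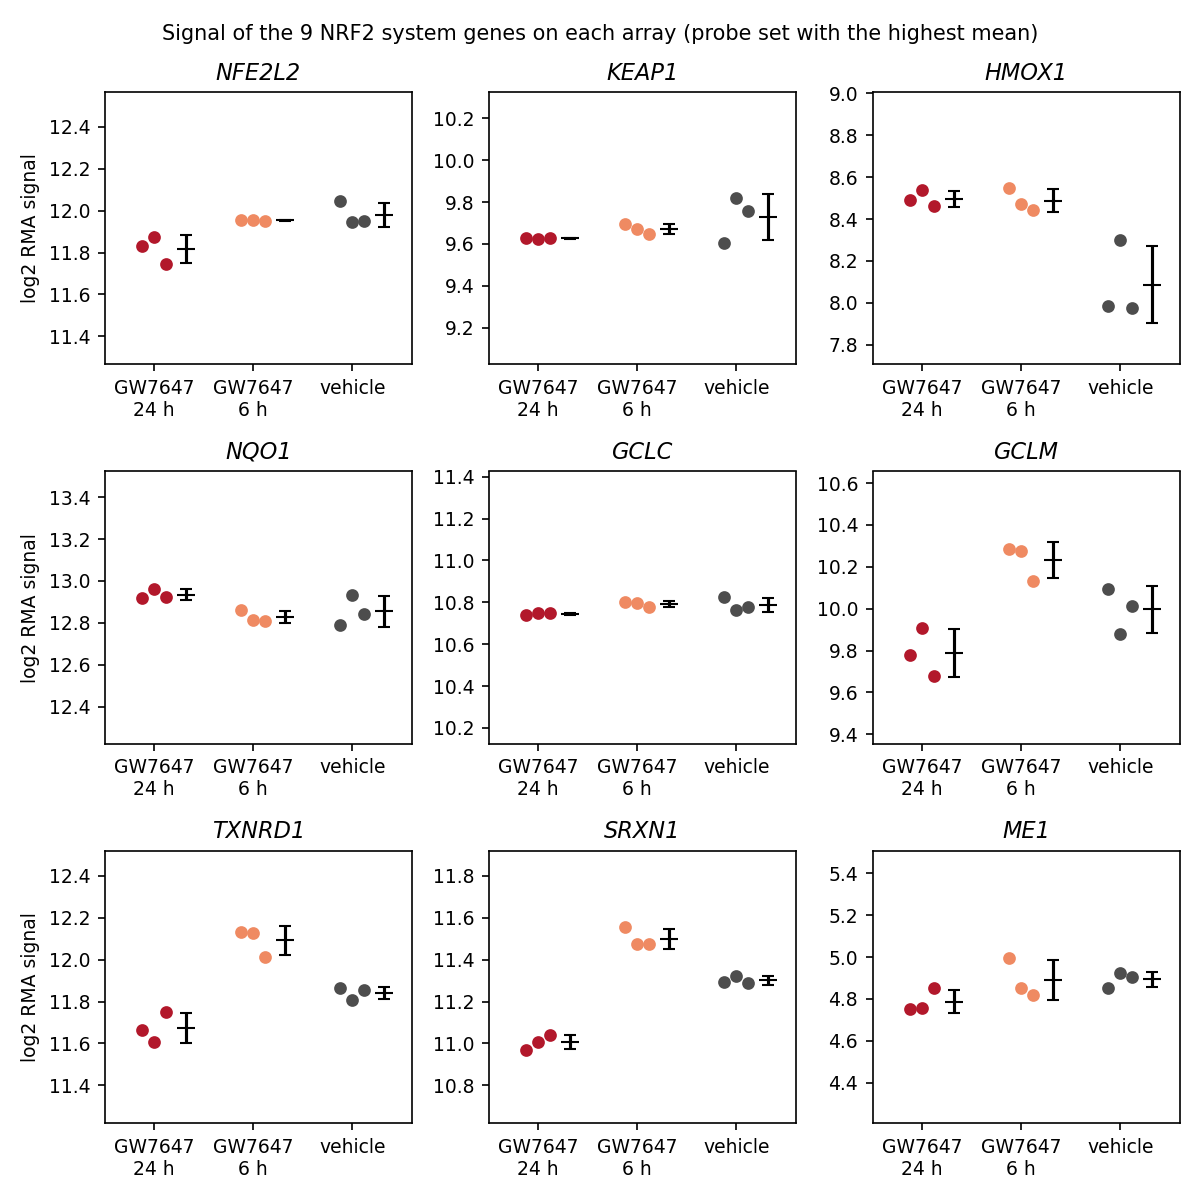
Log2 RMA signal (y axis, the same span of log2 units in each panel) of each of the 9 genes on its probe set with the highest mean, by group (x axis); points are arrays, and the bar beside them is the mean ± SD of 3 arrays. GCLM, TXNRD1 and SRXN1 are highest at 6 h and lowest at 24 h, whereas HMOX1 is high at both times, with vehicle arrays between 7.98 and 8.30.

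NFE2L2 had signals of 11.83, 11.88 and 11.74 log2 units at 24 h, 11.96, 11.95 and 11.95 at 6 h, and 12.04, 11.94 and 11.95 in vehicle. The 24 h arrays lay below all others, and the 6 h and vehicle arrays overlapped. Its log2 change was -0.16 ± 0.06 (SE) for 24 h against vehicle (unadjusted p = 0.0147, adjusted p = 0.112) and -0.03 ± 0.06 for 6 h against vehicle (adjusted p = 0.873). The other 2 probe sets of NFE2L2 had log2 changes of -0.24 and -0.0062 for 24 h against vehicle, and neither passed.

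KEAP1, the substrate adaptor that presents NRF2 to the ligase CUL3, had signals of 9.63 on all 3 arrays at 24 h. It had 9.70, 9.67 and 9.65 at 6 h, and 9.61, 9.82 and 9.76 in vehicle. The treated arrays lay inside the vehicle range, and the log2 changes were -0.10 ± 0.06 at 24 h (adjusted p = 0.393) and -0.06 ± 0.06 at 6 h (adjusted p = 0.711). Neither the factor nor its inhibitor passed the test at the transcript level.

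HMOX1 encodes haem oxygenase 1, which opens the haem ring and releases iron, carbon monoxide and biliverdin. Its signals were 8.49, 8.54 and 8.46 at 24 h, 8.55, 8.47 and 8.44 at 6 h, and 7.99, 8.30 and 7.98 in vehicle. All treated arrays lay above all vehicle arrays, and the treated groups overlapped each other. Vehicle replicate 2 was the highest of its group, which had an SD of 0.18, against 0.04 at 24 h and 0.06 at 6 h. HMOX1 rose by 0.41 ± 0.08 log2 units at 24 h (adjusted p = 0.0116) and by 0.40 ± 0.08 at 6 h (adjusted p = 0.0247). Between 24 h and 6 h the difference was 0.0088, with a 95% confidence interval of -0.17 to 0.19. At 24 h the call ended without vehicle replicate 1 (adjusted p = 0.0512). Removing vehicle replicate 1 or 3, or a single 6 h array, ended the call at 6 h, with adjusted p values up to 0.105, and so did fitting 6 h and vehicle arrays alone (0.0674).

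Glutamate-cysteine ligase, which carries out the rate-limiting step of glutathione synthesis, has a catalytic subunit, GCLC, and a modifier subunit, GCLM, that raises the catalytic efficiency of the enzyme. GCLM had signals of 9.78, 9.91 and 9.68 at 24 h, 10.29, 10.27 and 10.13 at 6 h, and 10.10, 9.88 and 10.01 in vehicle. The 6 h arrays were above both other groups, while the 24 h and vehicle arrays overlapped through vehicle replicate 2 and 24 h replicate 2. GCLM fell by 0.44 ± 0.08 log2 units for 24 h against 6 h (adjusted p = 0.00362). Against vehicle it did not pass, with -0.21 ± 0.08 at 24 h (adjusted p = 0.146) and 0.23 ± 0.08 at 6 h (adjusted p = 0.151).

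GCLC differed less between groups, with signals of 10.74, 10.75 and 10.75 at 24 h, 10.80, 10.79 and 10.78 at 6 h, and 10.82, 10.76 and 10.78 in vehicle. Its 24 h arrays lay below all others, and 13.8% of all genes had 24 h arrays entirely below the 6 h arrays. Its log2 change for 24 h against 6 h was -0.05 (95% confidence interval -0.15 to 0.06, adjusted p = 0.620), and for 6 h against vehicle 0.0039 (-0.10 to 0.11). The signal of GCLM minus that of GCLC, taken within each array, was -0.96 ± 0.11 at 24 h, -0.56 ± 0.07 at 6 h and -0.79 ± 0.08 in vehicle (SD, n = 3 arrays). The level of such a difference between probe sets has no meaning of its own, and only its shift between groups was read. It was lower by 0.40 log2 units for 24 h against 6 h, with a two-sided exact permutation p = 0.1, the smallest that 3 against 3 arrays allow. The shift was 0.23 for 6 h against vehicle (exact p = 0.1) and -0.16 for 24 h against vehicle (exact p = 0.2). GCLM was already called for 24 h against 6 h on these arrays, and GCLC changed little. The shift between 24 h and 6 h therefore repeats the fall of GCLM and is no separate support.

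The 3 probe sets of GCLM moved together. With each probe set tested on its own, the log2 changes for 24 h against 6 h were -0.44 ± 0.08, -0.77 ± 0.13 and -0.72 ± 0.10, and all 3 fell (adjusted p = 0.00552, 0.00393 and 0.00101). At 6 h all 3 had their arrays entirely above vehicle, with log2 changes of 0.23, 0.31 and 0.42, where 9.20% of all probe sets had such arrays. As GCLM was picked by its fall from these same 6 h arrays, that share is no test of it. None of the 3 passed, the nearest at an adjusted p = 0.0551. The other 2 probe sets of GCLC had -0.09 and -0.23 for 24 h against 6 h, and neither passed. For 24 h against vehicle those 2 had -0.18 (limma unadjusted p = 0.016, adjusted p = 0.142) and -0.13 (adjusted p = 0.611). The 3 GCLM probe sets had -0.21, -0.46 and -0.30 there, and none passed. The contrast of the subunits thus depends on the probe set and the comparison.

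TXNRD1, thioredoxin reductase 1, is the selenoenzyme that uses NADPH to keep thioredoxin reduced in the cytosol. Its signals were 11.66, 11.61 and 11.75 at 24 h, 12.13, 12.13 and 12.01 at 6 h, and 11.86, 11.81 and 11.85 in vehicle. The 3 groups did not overlap, with 6 h highest and 24 h lowest. TXNRD1 fell by 0.42 ± 0.06 log2 units for 24 h against 6 h (adjusted p = 9.61e-04) and rose by 0.25 ± 0.06 for 6 h against vehicle (adjusted p = 0.0456). The rise at 6 h was close to the threshold: with 24 h replicate 2 removed it still passed, and with any other single array removed it did not (adjusted p up to 0.178). It was lost in 15 of 19 alternatives, among them the replicate number as a block (adjusted p = 0.101), and with each probe set tested on its own (0.0732). With the gene's probe sets averaged the rise was 0.15 (adjusted p = 0.129), and the fall for 24 h against 6 h was smaller, at -0.24, and still passed. Compared with vehicle, the 24 h log2 change was -0.17 ± 0.06 (adjusted p = 0.117). A second TXNRD1 probe set, with signals of 3.23 to 3.41 on all arrays, had log2 changes between -0.06 and 0.06 in the 3 comparisons.

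SRXN1, sulfiredoxin 1, restores peroxiredoxins that peroxide has overoxidised. Its signals were 10.97, 11.01 and 11.04 at 24 h, 11.56, 11.47 and 11.47 at 6 h, and 11.29, 11.32 and 11.29 in vehicle. These groups did not overlap either, in the same order as for TXNRD1. SRXN1 fell by 0.50 ± 0.05 log2 units for 24 h against 6 h (adjusted p = 1.64e-04) and by 0.30 ± 0.05 for 24 h against vehicle (adjusted p = 0.00565). Compared with vehicle, the 6 h log2 change was 0.20 ± 0.05 and did not pass (adjusted p = 0.0647). A single probe set reads SRXN1, as it does KEAP1 and HMOX1.

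**Figure D2:**
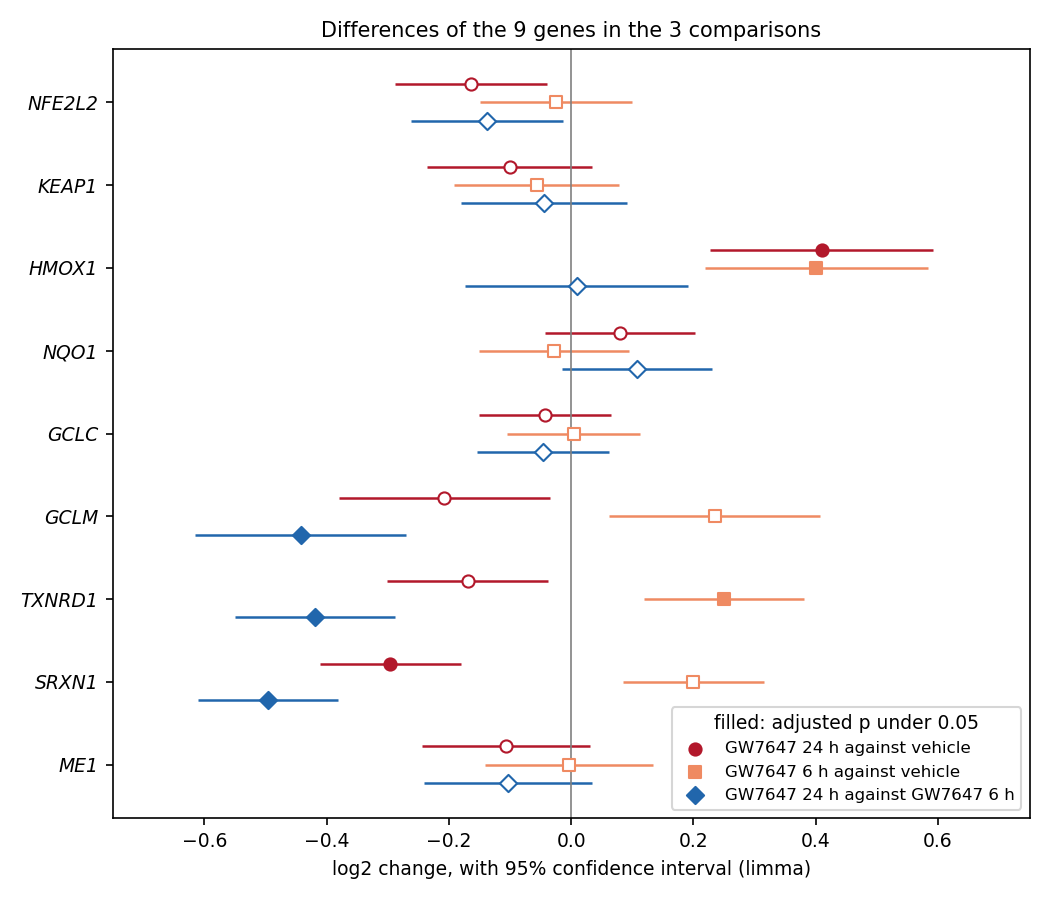
Log2 change (x axis) with its 95% confidence interval for each of the 9 genes (rows) in the 3 comparisons; filled symbols passed at an adjusted p under 0.05. The 3 filled diamonds are the falls of GCLM, TXNRD1 and SRXN1 for 24 h against 6 h, between -0.50 and -0.42, and the filled symbols to the right of 0 are HMOX1 at both times and TXNRD1 at 6 h.

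The promoters of the 3 genes that fell for 24 h against 6 h are shown, since NRF2 acts through a short DNA element. These genes share that call, and whether they change together was not tested. Each is 300 bases from RefSeq (GRCh38.p14), from 250 before to 50 after the gene's start, 5′ to 3′ on the gene's strand. Capitals mark matches, on either strand, to the core of the antioxidant response element, searched as TGACNNNGC. The GCLM window is chr1:93909381-93909680 (minus strand), that of TXNRD1 the first of its 2 entries, chr12:104215529-104215828 (plus strand), and that of SRXN1 chr20:653151-653450 (minus strand).
GCLM: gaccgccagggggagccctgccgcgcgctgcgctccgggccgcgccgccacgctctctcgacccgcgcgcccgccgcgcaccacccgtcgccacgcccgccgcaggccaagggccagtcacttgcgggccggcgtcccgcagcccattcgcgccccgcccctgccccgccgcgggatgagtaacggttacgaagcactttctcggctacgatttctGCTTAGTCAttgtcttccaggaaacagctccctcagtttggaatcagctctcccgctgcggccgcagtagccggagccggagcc
TXNRD1: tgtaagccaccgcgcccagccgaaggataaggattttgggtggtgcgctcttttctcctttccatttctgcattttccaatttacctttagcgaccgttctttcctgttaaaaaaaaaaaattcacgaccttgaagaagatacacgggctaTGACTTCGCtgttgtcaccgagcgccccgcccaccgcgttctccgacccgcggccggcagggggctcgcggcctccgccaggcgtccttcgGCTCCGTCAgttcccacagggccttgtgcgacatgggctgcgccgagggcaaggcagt
SRXN1: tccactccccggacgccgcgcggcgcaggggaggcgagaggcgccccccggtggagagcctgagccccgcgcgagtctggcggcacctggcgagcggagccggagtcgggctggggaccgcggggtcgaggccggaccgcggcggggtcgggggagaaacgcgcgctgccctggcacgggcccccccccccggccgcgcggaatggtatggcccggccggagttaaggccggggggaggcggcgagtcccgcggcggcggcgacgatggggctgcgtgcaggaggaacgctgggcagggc
The GCLM promoter holds 1 match, GCTTAGTCA, that begins at position -34 from the start and lies on the opposite strand. This TXNRD1 promoter holds TGACTTCGC at -99 and GCTCCGTCA, on the opposite strand, at -8. The other TXNRD1 entry, not printed, holds GCTTTGTCA at -102, on the opposite strand. No match lies in this window of SRXN1, which has a G and C content of 80%.

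Of the 9 genes 8 matched the promoter table, with 11 promoters in all, and HMOX1 did not match. The core was found in 5 of these 11 promoters, which belong to 4 genes, and in 13.3% of all 35116 promoters of that length. Besides GCLM and TXNRD1, KEAP1 held 2 matches in 1 of its promoters, TGACACGGC and a GCTTAGTCA with the same letters as in GCLM. ME1 held TGACTCAGC, whose first bases also make up the AP-1 motif TGACTCA, and GCACCGTCA. The promoters of NFE2L2, NQO1, GCLC and SRXN1 held none in these windows. The PPAR element, searched as a direct repeat of AGGTCA with 1 base between, was in 0 of the 11 promoters and in 0.0228% of all. This exact form is so rare, in 8 of 35116 promoters, that its absence here cannot tell whether these genes have a PPAR element. Looser forms and other regions were not searched. A match describes letters only. GCLM and TXNRD1, which have matches, and SRXN1, which has none in this window, all fell for 24 h against 6 h. KEAP1 and ME1, which have matches, did not pass, and the signals of ME1 lay below the array medians. The part of the element in these changes was not tested.

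NQO1 is a reductase that takes quinones to hydroquinones and is a standard readout of NRF2. Its signals were 12.92, 12.96 and 12.92 at 24 h, 12.86, 12.81 and 12.81 at 6 h, and 12.79, 12.93 and 12.84 in vehicle. The treated arrays overlapped the vehicle range at both times, and the 24 h arrays lay above the 6 h arrays. The log2 changes were 0.08 (95% confidence interval -0.04 to 0.20) for 24 h against vehicle, -0.03 (-0.15 to 0.09) for 6 h against vehicle and 0.11 (-0.02 to 0.23) for 24 h against 6 h, and none passed. The other 2 probe sets had changes between -0.03 and 0.07 in all 3 comparisons. The upper bound at 6 h corresponds to a 1.07-fold rise.

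ME1, the cytosolic malic enzyme that makes NADPH from NADP while it turns malate into pyruvate, had signals of 4.75, 4.76 and 4.85 at 24 h, 5.00, 4.85 and 4.82 at 6 h, and 4.85, 4.92 and 4.91 in vehicle. All 3 of its probe sets had means of at most 4.89 in any group, below the array medians of 5.61 to 5.68, and its groups overlapped in every comparison. Its log2 changes were -0.11 at 24 h and -0.0036 at 6 h, with adjusted p = 0.369 and 0.987.

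Across all 20 probe sets, with each tested on its own, 0 rose and 5 fell for 24 h against 6 h, where 9.71% of all probe sets were called (6.20% higher and 3.51% lower). The 5 were the 3 probe sets of GCLM and 1 each of TXNRD1 and SRXN1. At 24 h against vehicle 1 rose (HMOX1) and 1 fell (SRXN1), with 5.66% of all probe sets called (3.37% higher and 2.30% lower). At 6 h against vehicle 1 rose (HMOX1) and 0 fell, with 2.03% called (0.905% higher and 1.13% lower).

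**Figure D3:**
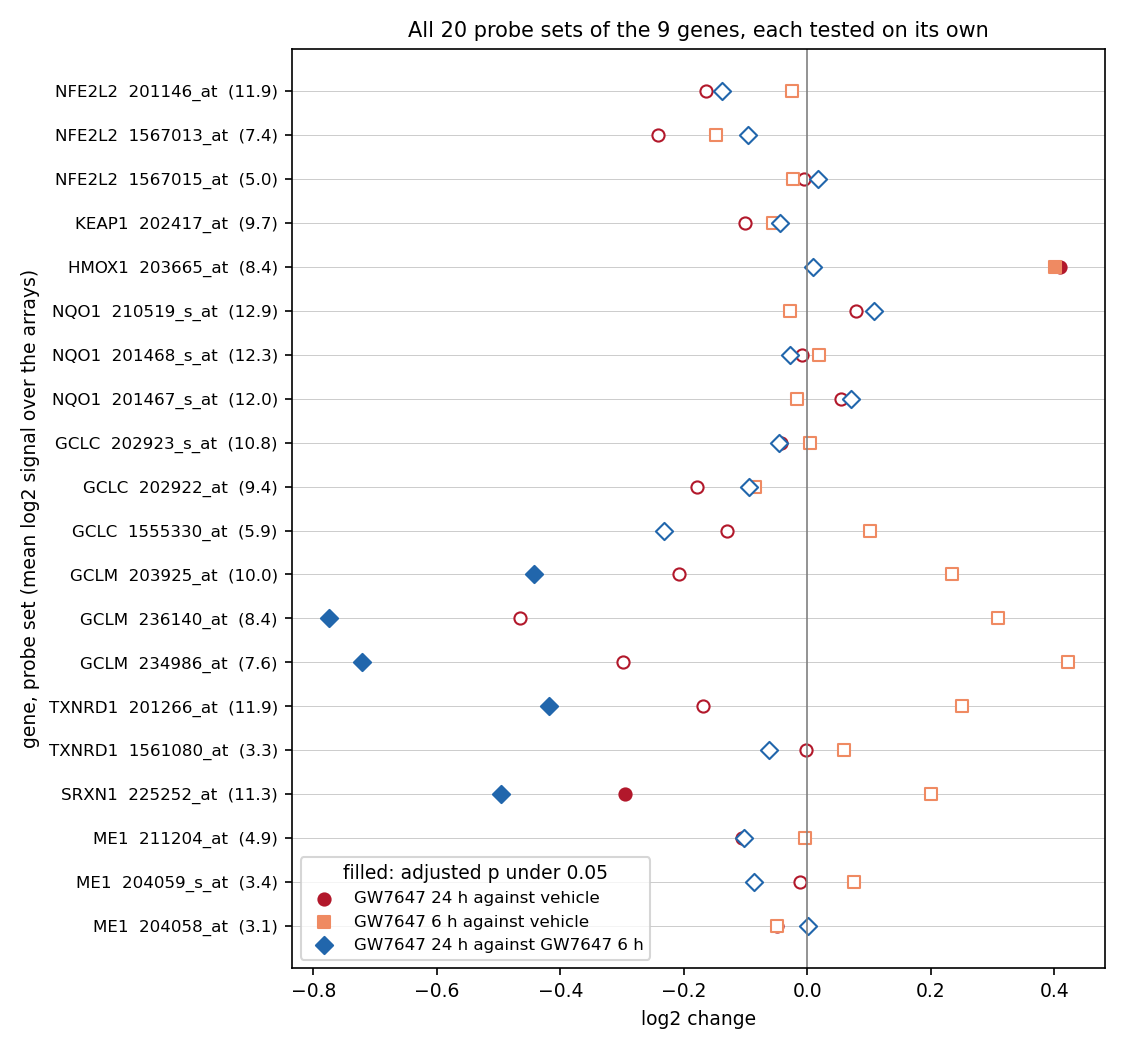
Log2 change (x axis) of each of the 20 probe sets (rows, with the mean log2 signal over the 9 arrays in brackets) in the 3 comparisons; filled symbols passed at an adjusted p under 0.05 over all probe sets. The 3 GCLM probe sets lie together at -0.77 to -0.44 for 24 h against 6 h, while those of GCLC, NQO1 and NFE2L2 lie nearer 0 and are open.

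Genes outside the 9 whose signal followed a called gene most closely over the 9 arrays were taken from 3307 genes called in at least 1 comparison, by Pearson's r. These values describe arrays that fall into 3 groups. For SRXN1 they were CCNE1 (r = 0.99) and MOB4 (r = 0.99), for TXNRD1 FAM135A (r = 0.99) and THBS1 (r = 0.98), and for GCLM MOCS2 (r = 0.99) and MCM10 (r = 0.98). For HMOX1 they were CYREN (r = 0.95) and TAF12 (r = 0.94).

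The rest of the pathway was read through 8 lists of other genes, 104 in all, of which 96 were measured and the rest were not analysed here. At 24 h against vehicle 14 rose, 7 fell and 75 did not pass, so that 21.9% were called where 8.17% of all genes were, and the median log2 change was 0.03. After quantile normalization 12 rose and 12 fell. Among genes brighter than the median over all genes, 32 of 84 list genes were called, against 2343 of 9887 of all such genes. At 6 h against vehicle 2 rose, 1 fell and 93 did not pass, 3.12% against 3.54% of all genes, with a median of -0.0021. With an intensity trend in the prior variance 9 list genes passed at 6 h, 3 higher and 6 lower, and 1104 of all genes did. Between 24 h and 6 h, 14 rose and 10 fell at 24 h, 25.0% against 13.8% of all genes, and 11 rose and 15 fell after quantile normalization. Leaving out vehicle replicate 1 brought the 21 calls at 24 h down to 13, as did 24 h replicate 3, and leaving out 6 h replicate 1 brought the 3 calls at 6 h down to 1. In some lists none passed at 6 h with limma. Their genes at an unadjusted p under 0.05 numbered 5 of 12 regulators, 1 of 13 in the thioredoxin list and 2 of 14 in the NADPH list. They numbered 4 of 15 quinone and carbonyl enzymes and 0 of 4 that remove superoxide and peroxide. Over all genes, 3227 of 19775 had an unadjusted p under 0.05 in this comparison.

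Among regulators and partners of NRF2, 1 of 12 rose at 24 h and 0 fell, with a list median of 0.03, and none passed at 6 h. The 1 was MAFF, a small MAF protein, at 8.32, 8.36 and 8.08 at 24 h, 8.03, 8.06 and 8.00 at 6 h, and 7.77, 7.82 and 7.78 in vehicle, a rise of 0.46 ± 0.07 log2 units at 24 h (adjusted p = 0.00293).

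In the glutathione list, 2 of 22 rose and 0 fell at 24 h (list median 0.12), and 1 rose and 0 fell at 6 h. SLC7A11, which brings in cystine for glutathione synthesis, had signals of 9.38, 9.57 and 9.59 at 24 h, 8.87, 9.03 and 9.05 at 6 h, and 7.53, 7.81 and 7.75 in vehicle. Its groups lay apart, with 24 h highest, the opposite order of 24 h and 6 h to that of GCLM. It rose by 1.82 ± 0.09 log2 units at 24 h (adjusted p = 8.72e-07) and by 1.29 ± 0.09 at 6 h (adjusted p = 1.65e-05). The microsomal transferase MGST2 rose at 24 h (0.25 ± 0.06, adjusted p = 0.0246), a call that ended when vehicle replicate 1, vehicle replicate 3 or a single 24 h array was removed (adjusted p up to 0.0820).

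In the thioredoxin list, 2 of 13 rose and 1 fell at 24 h, and none passed at 6 h. TXN, thioredoxin itself and the substrate of TXNRD1, had signals of 12.54, 12.57 and 12.52 at 24 h, 12.79, 12.78 and 12.77 at 6 h, and 12.88, 12.83 and 12.84 in vehicle. It fell by 0.30 ± 0.05 log2 units for 24 h against vehicle (adjusted p = 0.00376). The fall is that of a probe set with shared probes, and on a probe set without them the log2 change was 0.31 (adjusted p = 0.372). The mitochondrial reductase TXNRD2 (0.27 ± 0.07, adjusted p = 0.0297) and the sestrin SESN2 (0.25 ± 0.06, adjusted p = 0.0297) rose at 24 h. The call of TXNRD2 ended on removal of the same single arrays as that of MGST2 (adjusted p up to 0.0955), and without shared probes (0.19, adjusted p = 0.239). That of SESN2 ended on removal of a single vehicle array, of 6 h replicate 1, or of 24 h replicate 2 or 3 (up to 0.0998).

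The NADPH list had 6 rises and 0 falls among 14 at 24 h (list median 0.05), and none passed at 6 h. The largest were in mitochondrial enzymes: ALDH1L2 (1.82 ± 0.15, adjusted p = 3.72e-05) and MTHFD2 (1.10 ± 0.07, adjusted p = 4.66e-06), both of folate metabolism, and the isocitrate dehydrogenase IDH2 (0.48 ± 0.06, adjusted p = 8.32e-04). ALDH1L2 had signals of 6.67, 7.24 and 6.83 at 24 h, 4.83, 5.07 and 5.16 at 6 h, and 5.14, 4.85 and 5.28 in vehicle. With all probe sets averaged its log2 change at 24 h was 0.49. IDH2 no longer passed once probe sets with shared probes were dropped (0.31, adjusted p = 0.110).

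Of 10 genes of haem and iron handling, 2 rose and 1 fell at 24 h, and 1 rose and 0 fell at 6 h. ALAS1, the first enzyme of haem synthesis, also rose at both times, by 0.30 ± 0.06 log2 units at 24 h (adjusted p = 0.00875) and by 0.32 ± 0.06 at 6 h (adjusted p = 0.0126). That at 6 h ended without 6 h replicate 1 (adjusted p = 0.0647). The iron exporter SLC40A1 had 10.34, 10.38 and 10.40 at 24 h, 11.08, 11.05 and 10.94 at 6 h, and 10.85, 10.80 and 10.94 in vehicle, and fell by 0.49 ± 0.06 at 24 h (adjusted p = 6.99e-04). With its probe sets averaged the log2 change of SLC40A1 was -0.32. BLVRB, a biliverdin reductase, rose at 24 h (0.20 ± 0.05, adjusted p = 0.0427), a call that ended whichever of the 9 arrays was removed (adjusted p up to 0.119).

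Quinone, carbonyl and conjugating enzymes had 0 rises and 4 falls among 15 at 24 h (list median -0.13), and none passed at 6 h. AKR1C3, an aldo-keto reductase, fell by 0.39 ± 0.05 log2 units (adjusted p = 0.00138), and UGDH, which makes the sugar donor of glucuronidation, fell by 0.39 ± 0.07 (adjusted p = 0.00485). PTGR1 had -0.22 ± 0.06 (adjusted p = 0.0430), a call that held only with all arrays or without 24 h replicate 2 among the single removals (otherwise up to 0.134). With its probe sets averaged PTGR1 had a log2 change of -0.0183 (adjusted p = 0.898). AKR1C2, named after its values were seen, had -0.21 ± 0.05 (adjusted p = 0.0201), a call that ended without vehicle replicate 1 or a single 24 h array (up to 0.0580). Its log2 change was 0.10 once probe sets with shared probes were dropped, and AKR1C genes are near-identical, so its signal is uncertain.

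Of 6 export pumps 1 fell and 0 rose at both times. It was ABCC2, which carries glutathione and glucuronide conjugates into bile, at 10.78, 10.76 and 10.92 at 24 h, 11.09, 11.09 and 11.02 at 6 h, and 11.28, 11.42 and 11.34 in vehicle. ABCC2 fell by 0.52 ± 0.06 log2 units at 24 h (adjusted p = 6.15e-04) and by 0.28 ± 0.06 at 6 h (adjusted p = 0.0361). The call at 6 h ended on removal of vehicle replicate 2 or 3, of a single 6 h array, or of 24 h replicate 1 (up to 0.125). Of 4 genes that remove superoxide and peroxide, catalase CAT rose at 24 h (0.49 ± 0.06, adjusted p = 4.85e-04), and none passed at 6 h.

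**Figure D4:**
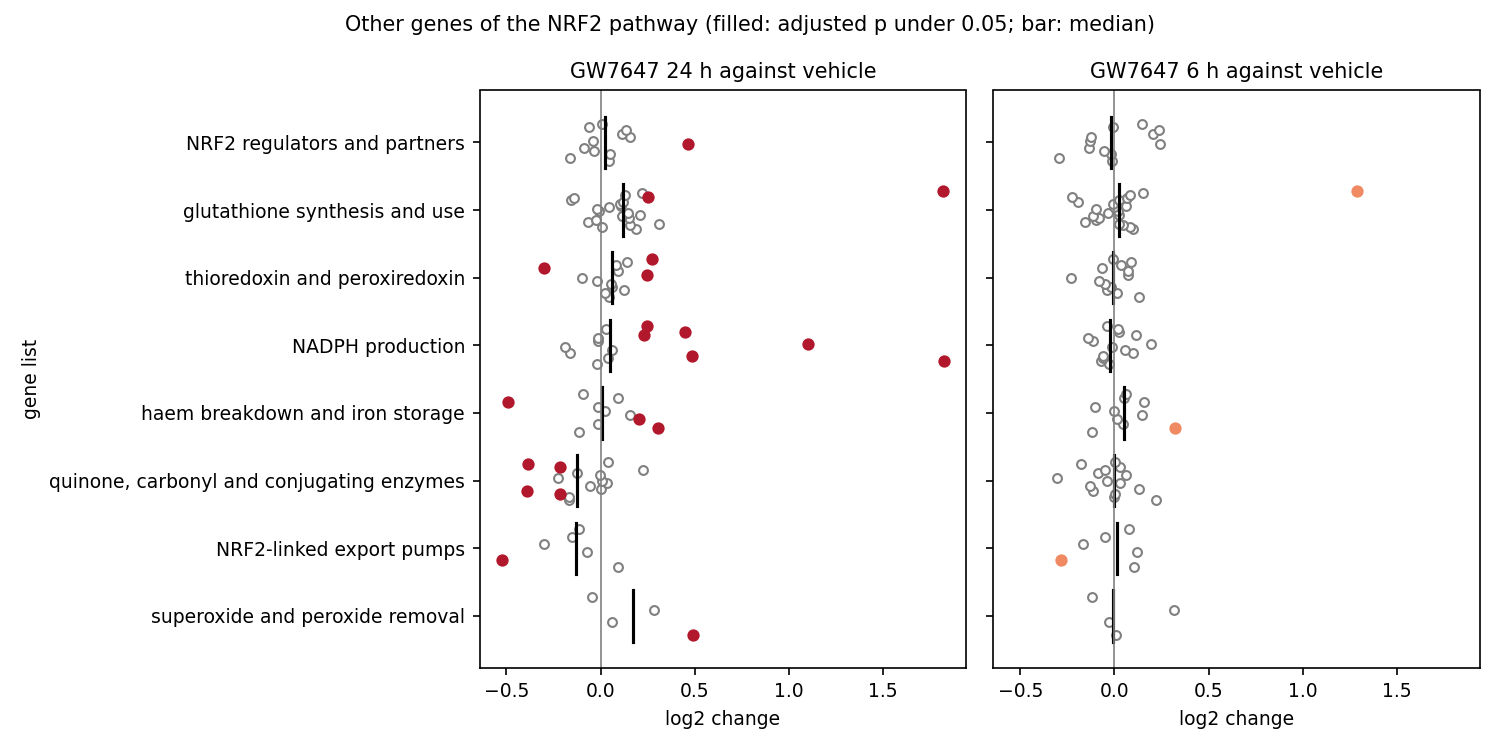
Log2 change (x axis) of 96 other genes of the pathway by list (rows), for 24 h against vehicle (left) and 6 h against vehicle (right); filled points passed at an adjusted p under 0.05, and black bars are list medians. The point farthest right at 6 h is SLC7A11 at 1.29, and at 24 h the filled points lie on both sides of 0, with 14 higher and 7 lower.

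The cells' label was set against marker genes. The 10 measured hepatocyte markers had mean signals of 9.69 (TTR) to 14.77 (ALB). Their summed signal was 17.27 to 17.30 log2 units at 24 h, 17.27 to 17.29 at 6 h and 17.31 to 17.32 in vehicle, and TTR and FGB fell at 24 h. Of 14 measured markers of other liver cells, SOX9 was highest at 11.11 and PTPRC lowest at 4.26. Their summed signal was 11.89 to 11.96 at 24 h, 11.70 to 11.75 at 6 h and 11.71 to 11.91 in vehicle, and 1 of 14, CD14, fell at 6 h. Both sums were taken on unlogged signals, so the brightest markers weigh most. In this second list SOX9 weighs most, and the dim markers add little. The part of these shifts in the results above was not tested.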

How the data were processed

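The signals deposited by the authors are on the log2 scale for 9 arrays, and the submitters' processing notes name RMA. Software, version and chip definition are not stated in those notes. The values run from 2.66 to 15.0 with 0 missing, and array medians from 5.61 to 5.68. Nothing was added or transformed.

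Probe sets were named by the platform annotation. Of 54675, 41091 had 1 symbol and were not controls. A gene with several probe sets was represented by the brightest on average (19775 genes); a second fit took all 41091 probe sets. Group means were fitted with limma 3.58.1 in R 4.3.3 (data.table, version 1.17.8) over all arrays, with eBayes at default settings, and 3 two-sided comparisons were called at a Benjamini-Hochberg adjusted p under 0.05. The median SE of a log2 change was 0.0724. Precision is limited by having 3 arrays in a group. Because the labels do not state that replicates are separate cultures, the p-values reflect variation among these arrays alone, possibly technical. The fit was tested on simulated data.

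The 9 genes and the lists, written from general knowledge, were chosen with earlier results of these data known. All 9 genes were named whatever their test, from each list up to 3 called genes with the largest change per comparison with vehicle, and for each called gene the 2 genes with the highest r. Alternatives blocked on replicate number, fitted each pair of groups alone, let the prior variance follow intensity with robust estimation, kept genes brighter than the median, averaged a gene's probe sets, dropped probe sets with shared probes (_x_at, _s_at), normalized by quantiles, centred arrays on their medians, weighted arrays, set the adjusted p at 0.01, or left out each array in turn. For the lists they were chosen after seeing the data.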

Additional observations from a re-analysis of the deposited data

Results flagged for a closer look

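The effects of 24 h and 6 h of GW7647, each against the same vehicle arrays, differed by the test of the difference itself in 3 of the 9 genes. The log2 change at 24 h minus that at 6 h was -0.44 for GCLM, -0.42 for TXNRD1 and -0.50 for SRXN1, with adjusted p = 0.00362, 9.61e-04 and 1.64e-04 in the limma fit. In all 3 genes the 3 arrays at 24 h lay below the 3 arrays at 6 h, and among all genes 13.8% had arrays lower without overlap in this comparison. The call itself favours such arrays, so this is no separate support. All 3 differences passed under each of the 19 alternatives, with GCLM between -0.65 and -0.39, TXNRD1 between -0.46 and -0.24 and SRXN1 between -0.54 and -0.46. Duration of exposure and time in culture change together here.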

How the results depend on the processing

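Of 507 log2 changes of the 9 genes under 19 alternatives, 455 kept their direction and side of the threshold, 24 were no longer past it, 11 newly passed and 17 changed sign, none of these with a call on either side. The genes called as reported numbered 2 for 24 h against vehicle, 2 for 6 h against vehicle and 3 for 24 h against 6 h, and the probe sets 2, 1 and 5. For 24 h against 6 h, 3 or 4 genes and 5 probe sets were called under every alternative that gave a value. For 24 h against vehicle, 4 genes were called with an intensity trend, where 2235 of 19775 of all genes were. Above the median signal 4 of 8 were called, where 2343 of 9887 of all genes were. NFE2L2 (adjusted p = 0.0226 and 0.0376) and TXNRD1 (0.0275 and 0.0418) newly fell in both fits. At an adjusted p under 0.01, 1 gene was called. The probe sets were 5 with a trend, 1 with only the compared groups and 0 at 0.01. For 6 h against vehicle, 1 gene was called with the replicate block, without shared probes, with median centring or with array weights, and 0 with only the compared groups or at 0.01. SRXN1 at 6 h newly passed with a trend (adjusted p = 0.0101), above the median signal (0.0159), with averaged probe sets (0.0474) and after quantile normalization (0.0375). The probe sets called at 6 h were 4 with a trend or above the median signal, 2 after quantile normalization or with array weights, and 0 with the replicate block, only the compared groups or at 0.01. With 1 array left out, the genes ranged from 1 to 2 at 24 h, 0 to 2 at 6 h and 3 to 3 for 24 h against 6 h, and the probe sets from 1 to 4, 0 to 1 and 5 to 5.

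Over all genes, 1616 were called for 24 h against vehicle, 701 for 6 h against vehicle and 2729 for 24 h against 6 h. With 1 array left out these were 1005 to 1666, 261 to 639 and 1518 to 3081. At 24 h against vehicle the count was 921 with only the compared groups and 695 at 0.01. At 6 h it was 427 with the replicate block, 454 with only the compared groups, 1104 with a trend, 1206 above the median signal, 454 without shared probes and 234 at 0.01. For 24 h against 6 h it was 1774 without shared probes and 1328 at 0.01. The cause of these moves was not tested.

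Among the 9 genes the changes of sign lay between -0.0842 and 0.0307. At 6 h ME1 became 0.0072 with averaged probe sets, 0.0044 with array weights and ran from -0.0574 to 0.0307 with 1 array left out. GCLC became -0.0842 without shared probes, -0.0139 with median centring and -0.0087 to 0.0218 with 1 array left out. With 1 array left out, NFE2L2 ran from -0.0427 to 0.0073 and NQO1 from -0.0613 to 0.0120. HMOX1 for 24 h against 6 h became -0.0403 after quantile normalization, -0.0030 with array weights and -0.0135 to 0.04 with 1 array left out. At 24 h TXN became 0.0032 with averaged probe sets and 0.3085 without shared probes, and AKR1C2 0.0988 without shared probes. For the list genes at 24 h against vehicle, 21 calls of 96 became 13 with only the compared groups or at 0.01. They became 12 of 74 without shared probes, where 1094 of 17098 of all genes were called. Above the median signal they became 32 of 84, where 2343 of 9887 of all genes were called. At 6 h the 3 calls became 9 with a trend (3 higher, 6 lower), 9 of 84 above the median signal (4 higher, 5 lower), 5 with averaged probe sets or after quantile normalization, and 1 at 0.01. At 24 h against 6 h the 24 calls became 14 of 74 without shared probes and 13 at 0.01. For the 96 list genes, 24 h against 6 h gave 14 higher and 10 lower, 11 and 15 after quantile normalization, and 15 calls without 6 h replicate 2.

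The labels number the replicates without saying that equal numbers belong together. Deviations from group means correlated at -0.20 to 0.09 between arrays of the same number, over 0.1 in 0 of 9 pairs, and at up to 0.25 between different numbers, so the numbers were not taken to pair the arrays. Besides the counts above, the replicate block left 2 genes called for 24 h against vehicle and 3 for 24 h against 6 h.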

Other observations

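Some deposited values were exactly equal, to 9 decimals, on several arrays. Of the 20 probe sets of the NRF2 system 9 had at least 1 value shared by 2 or more arrays, and 6 a value shared by 3. Over all 54675 probe sets 55.2% had such a tie, and up to 8 arrays shared 1 value. The part of such ties in the test was not tested.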
